A study of Mus musculus with 10 samples.

Results

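The genes described here encode the collagens, the laminin chains and the large glycoproteins and proteoglycans of the extracellular matrix. They are the rows whose symbol has the form of a collagen chain or a laminin chain, together with Fn1, Nid1, Nid2, Hspg2, Agrn, Vcan, Acan, Bcan and Ncan. In the table of 20325 genes there were 61 such genes, of which 41 are collagens, 11 are laminin chains and 9 are the other genes named. Of these, 39 passed the filter on low values and were tested, namely 20 collagens, 10 laminin chains and all 9 others.

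Basement membranes are thin matrix sheets on which epithelia and the early embryo rest. Laminins, which are trimers of an alpha, a beta and a gamma chain, and collagen IV form separate networks in them, which nidogens and the heparan sulfate proteoglycans perlecan and agrin connect. Embryonic stem cells make much of this matrix themselves, and the endoderm that arises beside them in the blastocyst makes more. Fibrillar collagens and the hyaluronan-binding proteoglycans versican, aggrecan, brevican and neurocan belong mostly to connective tissue, cartilage and brain.

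PolyA RNA was sequenced from 5 lines of mouse embryonic stem cells (mESCs), with 2 biological replicates a line. The first pair of lines, of strain 129/SvEv, lacks the histone chaperone DAXX (Daxx-/-) or lacks it and carries a transgene for WT DAXX (Daxx-/- + Daxx WT, here called DAXX-rescued). The other 3 lines, of a mixed 129 x C57BL/6J background, lack the replacement histone H3.3 (H3.3 KO), or lack it and carry a transgene for WT H3.3 (WT-rescued) or for H3.3 labelled L126A-L130A (mutant-rescued), which the study made as a form that does not enter chromatin. The study's text mostly gives the residue exchanged at the second position as isoleucine, not leucine. The transgenes, with a FLAG or a FLAG-HA tag, were delivered by lentivirus, ran from the EF1 promoter and were selected with puromycin, so that the rescued lines differ from their KO line also by transduction and selection. All 5 lines were grown without feeder cells on gelatin with LIF, CHIR99021 at 3 µM and PD0325901 at 1 µM. A line with neither deletion was not analysed here.

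Library totals lay between 15463625 and 21396585 expected counts. Daxx mRNA was at 72.8 and 82.5 CPM (counts scaled to a common library size with median-of-ratios factors) in Daxx-/- mESCs, at 206 CPM in both DAXX-rescued libraries and between 59.3 and 101 CPM in the H3.3 lines. Of the genes for H3.3, H3f3a ranged from 2.84 to 10.9 CPM where H3.3 was deleted and from 381 to 494 CPM elsewhere, while H3f3b was at 509 and 720 CPM in H3.3 KO mESCs, higher than in every other library, at 204 and 139 CPM in the WT-rescued and 386 and 324 CPM in the mutant-rescued line, and at 84.3 to 380 CPM in the Daxx lines. H3f3b counts thus do not show the deletion that the H3.3 labels name. Daxx counts in Daxx-/- mESCs lay within the range of the H3.3 lines, so they do not show the Daxx deletion either. Counts of either gene do not measure protein. By immunoblot the study reports H3.3 protein as absent from H3.3 KO mESCs. The counts do not show the H3.3 transgenes apart from H3f3a and H3f3b. Markers of pluripotent cells (Pou5f1, Nanog, Sox2 and 4 others) summed to between 5293 and 7198 CPM. Of 11 markers of fibroblasts and mesenchyme 8 stayed below 1 CPM in every library, and 12 markers of primitive and parietal endoderm summed, without Sparc, to between 8.42 and 28.6 CPM. The replicates of each line were further apart than counting error allows (chi-square per gene from 10.9 to 73.4, highest in Daxx-/- mESCs).

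Sequence is shown for the starts of the collagen IV pair, because Col4a1 was differentially expressed in the mutant-rescued line and Col4a2 starts beside it, and for the stretch upstream of Vcan, which was differentially expressed with either H3.3 transgene. Both come from RefSeq on GRCm38.p6, which held an entry for 47 of the 61 genes. Col4a1 and Col4a2 lie head to head on chromosome 8, with annotated transcript starts at position 11312826 on the minus strand and at 11312805 on the plus strand, so that their first exons share 22 bases. The window chr8:11312801-11312830 is given on the plus strand, with the shared bases in capitals.
Col4a1 and Col4a2 starts: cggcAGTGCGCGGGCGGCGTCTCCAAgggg
The library kit keeps no strand, so a read confined to these 22 bases cannot be given to one gene. In all, exons of 19 of the 61 genes overlap those of another gene, among them Lama3, Nid1, Nid2 and Fn1, each with a gene on the opposite strand, and such reads cannot be told apart.
The 250 bases before the annotated start of Vcan, chr13:89742513-89742762, are given on the minus strand, the strand of the gene, with motif matches in capitals.
Vcan, upstream: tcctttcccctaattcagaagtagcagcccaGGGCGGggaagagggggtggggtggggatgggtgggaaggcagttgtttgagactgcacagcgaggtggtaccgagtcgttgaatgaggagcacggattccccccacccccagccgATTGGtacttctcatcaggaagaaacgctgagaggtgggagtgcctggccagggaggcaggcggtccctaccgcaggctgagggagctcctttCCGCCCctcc
The capitals mark 2 matches to the GC box letters GGGCGG, 219 and 10 bases upstream of the start, and 1 match to CCAAT, 103 bases upstream, each searched on both strands. The TATAAA letters had 0 matches. The 250 bases before the start were searched in the same way in 32817 annotated promoter windows. Of these, 32.7% held the GC box letters, 33.8% held CCAAT and 12.4% held TATAAA, so these matches are common ones.

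The matrix genes took between 0.377% and 0.606% of the counts of a library. Per length of transcript the most abundant was Fn1, the gene of fibronectin, a glycoprotein that integrins bind, with a mean of 259 CPM per kb over the 10 libraries. It was followed by Nid2 at 88.8, Lamc1, the gamma chain of most laminins, at 70.3, Nid1 at 57.7 and Agrn at 43.9 CPM per kb. Fn1 alone held between 39.6% and 50.1% of the matrix CPM of a library, and Fn1, Lamc1, Nid1 and Nid2 together between 70.1% and 77.7%. The most abundant collagen per length was Col18a1, a basement membrane collagen whose released end fragment is endostatin, at 19.5 CPM per kb, above Col9a2 at 4.14 and Col4a1 at 4.08 CPM per kb. Only 9 of the 61 genes exceeded 10 CPM per kb on average, and 39 of the 61 stayed below 1 CPM per kb.

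The 22 genes that were not tested had at most 22 counts in any library. They included 4 of the 6 collagen IV chains (Col4a3 to Col4a6), 3 of the 4 collagen VI chains in the table and both partners of Col1a1 in connective tissue fibrils, Col1a2 and Col3a1. For 7 of them no library held more than 3 counts, and Col8a1 had 0 counts in every library, which allows a level of up to 3 counts, between 0.149 and 0.202 CPM. Such a limit covers counting error only.

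**Figure D1:**
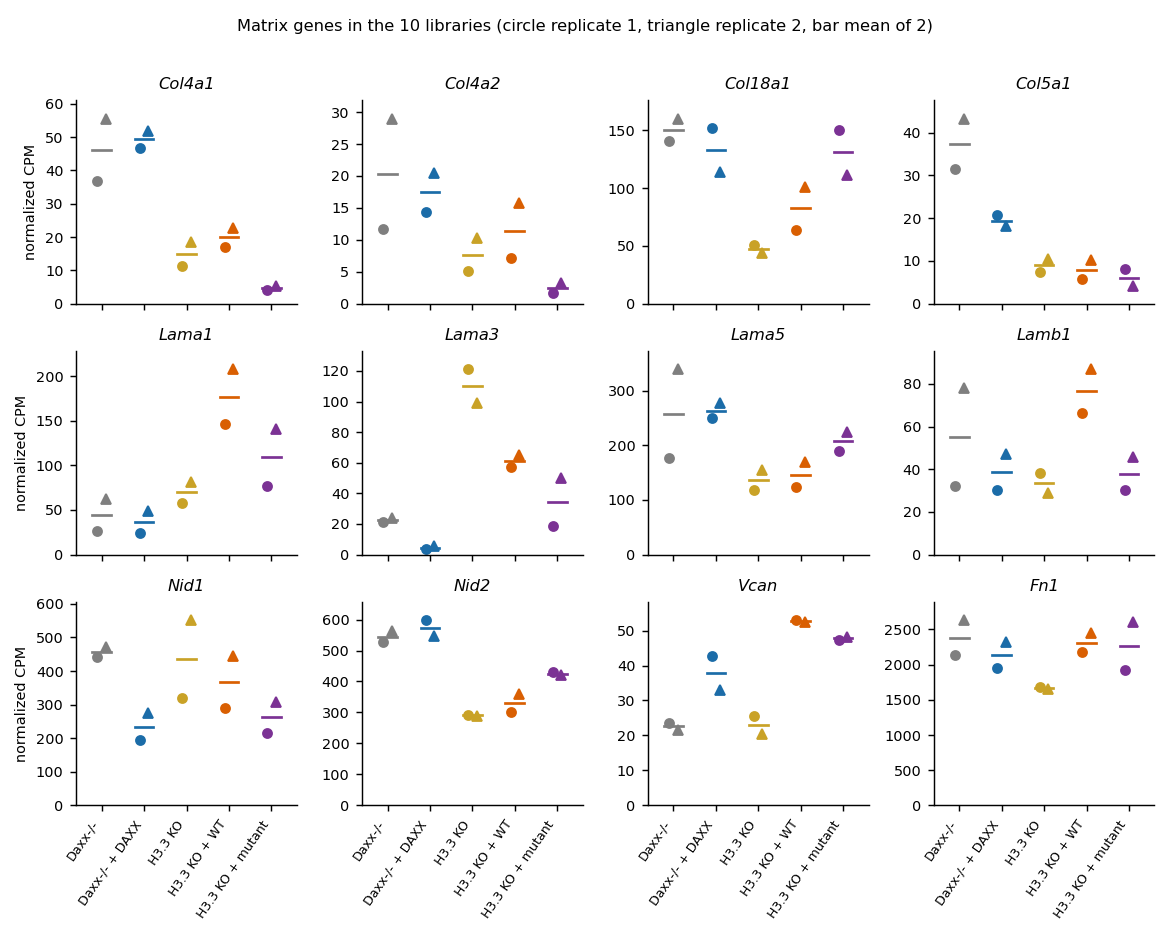
Normalized CPM (vertical axis, from 0) of 12 matrix genes in the 10 libraries, grouped by line, with a circle for replicate 1, a triangle for replicate 2 and a bar for the mean of 2. Col4a1 sits at 3.98 and 5.20 CPM in the mutant-rescued line, below every other library, and Vcan at 52.9 and 52.3 CPM in the WT-rescued line, above every other library.

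The first comparison asked which matrix genes moved when DAXX was returned to Daxx-/- mESCs. A gene counts as differentially expressed (DE) where edgeR's quasi-likelihood test gave a change of 2-fold or more and a p under 0.05 after Benjamini-Hochberg adjustment, and adjusted p-values below are from that test. With the DAXX transgene 1 of the 39 tested matrix genes was DE, and it fell. Among all 13201 genes tested 1.08% were DE, 0.288% higher and 0.795% lower. An unadjusted p under 0.05 was reached by 9 of the 39 matrix genes, or 23.1%, against 21.8% of all genes. The median log2 fold change of the 39 was -0.54, with 29 of them lower, against a median of -0.02 over all genes, 52.0% of which were lower. The markers of primitive and parietal endoderm had a negative log2 fold change in 9 of 9 tested members, with a median of -1.13; 0 were DE by edgeR, and 2, Gata6 (-2.57, SE 0.95) and Sox17 (-1.93, SE 0.65), had an unadjusted p under 0.05. Without Sparc they summed to 10.1 and 28.6 CPM in Daxx-/- mESCs and to 8.42 and 10.6 CPM with DAXX, and their part in the result was not tested.

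The gene that fell was Lama3, the alpha chain of the laminin that anchors epidermis. It was measured at 21.5 and 23.7 CPM in replicates 1 and 2 of Daxx-/- mESCs and at 3.32 and 5.50 CPM in the DAXX-rescued line. The lines did not overlap, and the log2 fold change was -2.36 (SE 0.43, adjusted p = 0.0410), a 5.14-fold lower level. The call was lost without replicate 2 of Daxx-/- (adjusted p = 0.0971), without replicate 1 (0.375) or replicate 2 (0.101) of the DAXX-rescued line, with scaling by the total count alone (0.0501) and with only the 4 libraries compared in the fit (0.136). Lamb3, the beta partner of this chain, did not pass, with a log2 fold change of -0.73 (SE 0.73) and overlapping libraries.

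Of the 7 tested fibrillar collagens none was DE with DAXX in the main edgeR fit over all 10 libraries. In that fit 4 had an unadjusted p under 0.05, all lower. By DESeq2 3 (Col1a1, Col2a1 and Col5a3) were DE, and the same 3 were DE by edgeR with the replicate number as a block. Col1a1 was DE also with limma and with no filter on low values. The share of all genes DE with DAXX was given for the main fit only, so these other counts have no such share beside them. Col1a1, the main chain of the collagen of bone and skin, was at 3.82 and 4.44 CPM in Daxx-/- mESCs and at 0.495 and 0.954 CPM in the rescued line, with a log2 fold change of -2.51 (SE 0.54, adjusted p = 0.0588). Col2a1, the cartilage collagen, was at 5.27 and 14.8 CPM against 2.23 and 1.91 CPM, a log2 fold change of -2.27 (SE 0.55, adjusted p = 0.0718). Col5a3, a collagen V chain, was at 1.55 and 4.88 CPM against 0.446 and 0.785 CPM, a log2 fold change of -2.38 (SE 0.68, adjusted p = 0.103). In all 3 both rescued libraries lay below both Daxx-/- libraries, and all 3 are low-count genes. Their calls followed single libraries: without replicate 1 of Daxx-/- all 3 were DE, as were Lama3 and no other matrix gene, and without replicate 2 of that line none was. The summed CPM of the fibrillar collagens was 51.0 and 84.2 in Daxx-/- mESCs and 34.3 and 32.3 in the rescued line. The markers of fibroblasts and mesenchyme moved with it, from 28.9 and 52.8 to 15.5 and 24.9 CPM in sum (5.43 and 16.8 to 3.86 and 8.81 CPM without Thy1, their most abundant gene), and of their 3 tested members none was DE by edgeR and 2 had an unadjusted p under 0.05. Among their defining markers Dcn, Lum and Postn had at most 3 counts in every library. The part of such cells in the result was not tested, and in bulk RNA fewer cells of a type and less RNA per cell cannot be told apart.

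Col4a1 and 6 abundant genes of the pericellular matrix had small estimates with DAXX. Col4a1 had a log2 fold change of 0.09 (SE 0.28), Lama5, the most abundant alpha chain per length, 0.03 (SE 0.29), Lamc1 -0.29 (SE 0.16), Nid2 0.07 (SE 0.13), Hspg2 (perlecan) 0.35 (SE 0.41), Agrn -0.14 (SE 0.20) and Fn1 -0.16 (SE 0.18). Nid1, a linker of laminin and collagen IV, was at 442 and 473 CPM in Daxx-/- mESCs and at 194 and 275 CPM with DAXX. Its log2 fold change of -0.96 (SE 0.31) had an adjusted p of 0.132. Vcan was at 23.5 and 21.6 CPM against 42.8 and 33.0 CPM, a log2 fold change of 0.75 (SE 0.18, adjusted p = 0.0695). The low-count transmembrane collagen Col23a1 was at 0.443 and 0.943 CPM against 0.198 and 0.168 CPM, a log2 fold change of -1.87 (SE 0.63, adjusted p = 0.142).

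**Figure D2:**
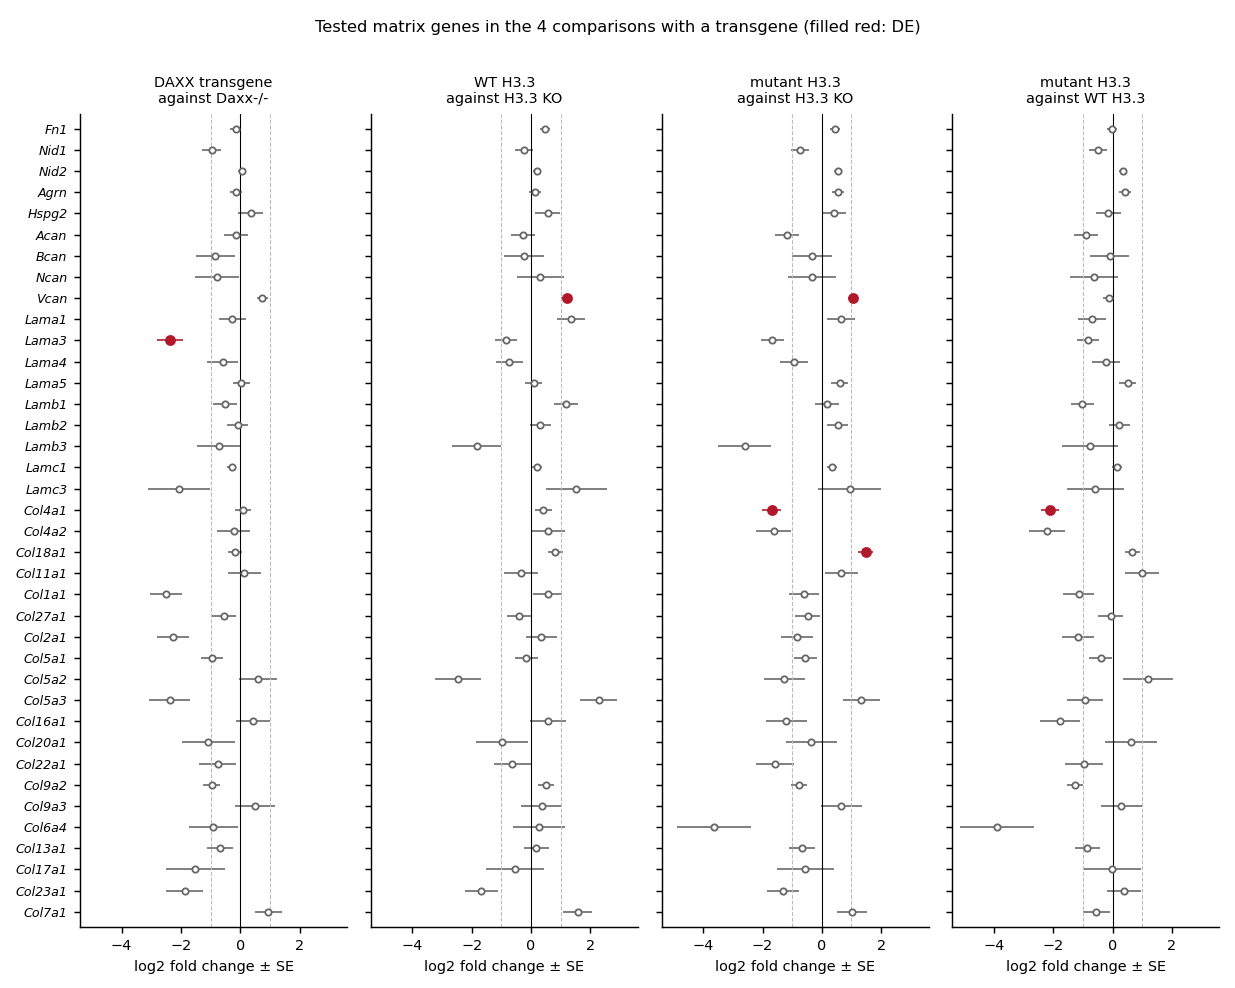
Log2 fold change (horizontal axis) with its standard error for tested matrix genes, ordered by class, in the 4 comparisons with a transgene, where filled red points are DE and dashed lines mark a 2-fold change. There is 1 red point in the DAXX panel (Lama3, -2.36), 1 in the WT H3.3 panel (Vcan, 1.20), 3 in the panel of the mutant against H3.3 KO (Col4a1, Vcan and Col18a1) and 1 in the panel of the mutant against WT H3.3 (Col4a1, -2.11).

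The second comparison asked the same of WT H3.3 in H3.3 KO mESCs. Of the 39 matrix genes 1 was DE, and it rose. Of all genes 0.250% were DE, 0.0379% higher and 0.212% lower. An unadjusted p under 0.05 was reached by 9 matrix genes, or 23.1%, against 13.3% of all genes. The median log2 fold change of the 39 was 0.20, with 24 of them higher, against 0.02 over all genes, 51.8% of which were higher.

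The gene that rose was Vcan, which encodes versican, a hyaluronan-binding proteoglycan of embryonic and loose connective tissue. It was measured at 25.4 and 20.4 CPM in H3.3 KO mESCs and at 52.9 and 52.3 CPM in the WT-rescued line. The libraries did not overlap, and the log2 fold change was 1.20 (SE 0.18, adjusted p = 0.0411). The direction held without each of the 4 libraries in turn, with log2 fold changes between 1.05 and 1.36, and the call was lost without any one of them, with adjusted p-values between 0.145 and 0.380. The other 3 members of its family had log2 fold changes between -0.27 (Acan) and 0.31 (Ncan), with overlapping libraries.

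None of the chains of the early embryonic laminin, Lama1, Lamb1 and Lamc1, was DE with WT H3.3 in the main edgeR fit or by DESeq2. In the main fit 2 had an unadjusted p under 0.05. Of 9 alternatives other than leaving out a library, Lama1 was DE in 2, among them edgeR with the replicate number as a block. Lama1 was at 57.5 and 81.9 CPM in H3.3 KO mESCs and at 147 and 208 CPM in the WT-rescued line, a log2 fold change of 1.35 (SE 0.47, adjusted p = 0.272). Lamb1, its beta partner, was at 38.0 and 28.9 CPM against 66.4 and 86.8 CPM, a log2 fold change of 1.19 (SE 0.41, adjusted p = 0.265). Lamc1, the third chain of the trimer, was at 384 and 480 CPM against 442 and 553 CPM, so that its libraries overlapped. Sparc, which endoderm makes in quantity along with these chains, was at 286 and 349 CPM against 416 and 514 CPM (log2 fold change 0.55, SE 0.18, adjusted p = 0.256). The other 11 endoderm markers summed to 11.3 and 17.5 CPM in H3.3 KO mESCs and to 11.3 and 11.5 CPM in the WT-rescued line. The whole endoderm list had 0 DE members of 9 tested in this comparison. Only Sparc had an unadjusted p under 0.05 by edgeR, beside 13.3% of all genes. The part of endoderm in this comparison was not tested.

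Among the 20 tested collagens none was DE with WT H3.3 in the main edgeR fit, 5 had an unadjusted p under 0.05, and 1, Col5a3, was DE by DESeq2. Col5a3 was at 1.98 and 1.37 CPM against 5.71 and 10.6 CPM, a log2 fold change of 2.28 (SE 0.63, adjusted p = 0.198), and Col5a2, another collagen V chain, at 0.623 and 1.43 CPM against 0.0635 and 0.290 CPM, a log2 fold change of -2.46 (SE 0.78, adjusted p = 0.243). The 2 collagen V chains thus had opposite signs, and Col5a2 rested on 1 and 5 counts in the WT-rescued libraries. Col7a1, which forms the anchoring fibrils under the epidermis, had a log2 fold change of 1.57 (SE 0.49, adjusted p = 0.233), and Col23a1 of -1.68 (SE 0.55, adjusted p = 0.255). Col4a1 and Col4a2 differed by 0.41 (SE 0.29) and 0.58 (SE 0.57) on the log2 scale, with overlapping libraries.

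The third comparison set the mutant H3.3 against the same H3.3 KO libraries. Of the 39 matrix genes 3 were DE, 2 higher (Vcan and Col18a1) and 1 lower (Col4a1). Of all genes 0.788% were DE, 0.182% higher and 0.606% lower. An unadjusted p under 0.05 was reached by 15 matrix genes, or 38.5%, against 16.9% of all genes. The median log2 fold change of the 39 was -0.36, against 0.03 over all genes. The collagens had 15 of 20 members lower and a median of -0.63, and the laminins 7 of 10 members higher and a median of 0.33.

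Col4a1, a chain of the collagen IV network, was at 11.4 and 18.4 CPM in H3.3 KO mESCs and at 3.98 and 5.20 CPM in the mutant-rescued line. The lines did not overlap, and the log2 fold change was -1.70 (SE 0.31, adjusted p = 0.0454). Its partner Col4a2, which starts in the window shown above, was at 5.04 and 10.3 CPM against 1.62 and 3.28 CPM, a log2 fold change of -1.63 (SE 0.61, adjusted p = 0.220). The pair summed with the other 4 chains to 17.3 and 29.5 CPM against 5.79 and 8.64 CPM. The call of Col4a1 was lost without any one of the 4 libraries (adjusted p between 0.0753 and 0.288, log2 fold change between -2.00 and -1.31), with scaling by the total count alone (0.0600) and with only the libraries compared (0.0869).

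Col18a1 was at 50.7 and 43.5 CPM in H3.3 KO mESCs, 64.1 and 101 CPM in the WT-rescued line and 151 and 111 CPM in the mutant-rescued line. Against H3.3 KO the log2 fold change was 1.47 with the mutant (SE 0.25, adjusted p = 0.0381) and 0.81 with WT H3.3 (SE 0.25, adjusted p = 0.233). Vcan was at 47.4 and 48.2 CPM with the mutant, a log2 fold change of 1.06 (SE 0.18, adjusted p = 0.0347). Both lay above both H3.3 KO libraries, and both calls were lost on leaving out single libraries. For Vcan this held for each of the 4 (adjusted p between 0.0673 and 0.270), and also with only the libraries compared (0.0686). For Col18a1 it held for replicate 1 (0.128) and replicate 2 (0.292) of H3.3 KO and replicate 1 of the mutant-rescued line (0.253). With the mutant the endoderm markers other than Sparc summed to 12.9 and 16.6 CPM, between the H3.3 KO libraries. This sum joins members of both signs. Of the 9 tested endoderm markers, with Sparc, 4 had a positive and 5 a negative log2 fold change. By edgeR 0 were DE, and 1, which was higher, had an unadjusted p under 0.05, beside 16.9% of all genes. The part of endoderm was not tested here either. The WT and mutant comparisons share the H3.3 KO libraries, so their values for Vcan are not independent of each other.

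The rest of the basement membrane genes did not pass against H3.3 KO in the main fit. Of 9 alternatives other than leaving out a library, Lama3 was DE in 3 and Col4a2 in 1. Both were DE with the replicate number as a block. Nid2 was at 292 and 290 CPM in H3.3 KO mESCs and at 429 and 420 CPM with the mutant, a log2 fold change of 0.55 (SE 0.13, adjusted p = 0.0820). Nid1 went the other way, at 320 and 551 CPM against 215 and 309 CPM, also without overlap. Both nidogens had an unadjusted p under 0.05 by edgeR, and neither was DE. Lama3 was at 121 and 99.3 CPM against 18.7 and 50.0 CPM, a log2 fold change of -1.68 (SE 0.39, adjusted p = 0.0802), and it was DE without replicate 2 of the mutant-rescued line (-2.55, adjusted p = 0.0246). Lamb3, the beta chain of the same epidermal laminin, was at 1.93 and 3.29 CPM against 0.404 and 0.438 CPM, which rested on 6 and 8 counts in the mutant-rescued libraries, with a log2 fold change of -2.61 (SE 0.88, adjusted p = 0.189). Col6a4, a collagen VI chain, had 18 and 10 counts in H3.3 KO mESCs and 0 and 2 counts with the mutant, so both mutant-rescued libraries were within the 3 counts taken as the limit of detection and no fold change is given. Acan, the aggrecan gene of cartilage, had a log2 fold change of -1.17 (SE 0.40, adjusted p = 0.193).

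Setting the mutant-rescued line against the WT-rescued line asked what deposition-deficient H3.3 changed relative to WT H3.3. Of the 39 matrix genes 1 was DE, Col4a1, and it was lower with the mutant. Of all genes 0.515% were DE, 0.250% higher and 0.265% lower. An unadjusted p under 0.05 was reached by 8 matrix genes, or 20.5%, against 12.3% of all genes, and the median log2 fold change was -0.40 against 0.00 over all genes. Col4a1 was at 17.0 and 22.7 CPM with WT H3.3 and at 3.98 and 5.20 CPM with the mutant, a log2 fold change of -2.11 (SE 0.31, adjusted p = 0.0333), or a 4.31-fold lower level. The lines did not overlap. The call was lost without any one of the 4 libraries (adjusted p between 0.0553 and 0.259, log2 fold change between -2.32 and -1.89), with the total count alone (0.0552) and with only the libraries compared (0.0642).

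Col4a2 was at 7.17 and 15.7 CPM with WT H3.3 and at 1.62 and 3.28 CPM with the mutant, a log2 fold change of -2.21 (SE 0.61, adjusted p = 0.164). Col9a2, a collagen that decorates cartilage fibrils, was at 20.9 and 29.6 CPM against 8.36 and 12.4 CPM, a log2 fold change of -1.28 (SE 0.27, adjusted p = 0.0934). Both genes were separate between the lines without passing the test in the main fit. Each was DE in 2 of 9 alternatives other than leaving out a library, namely DESeq2 and the replicate number as a block. Col16a1, of the same fibril-associated group, had a log2 fold change of -1.78 (SE 0.67, adjusted p = 0.322) at levels of at most 1.04 CPM in these lines. Vcan did not differ by more than its error between the H3.3-rescued lines, with a log2 fold change of -0.14 (SE 0.17), nor did Fn1 at -0.03 (SE 0.18), Hspg2 at -0.14 (SE 0.41) or Lamc1 at 0.14 (SE 0.16). Across the 10 libraries Col4a1 stood between 1.41 and 3.18 times the level of Col4a2 per kb, and the mutant-rescued libraries lay within that range at 2.40 and 1.54.

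Whether the change with DAXX differed from the changes with H3.3 was tested directly. For the DAXX change against the WT H3.3 change 0 of the 39 matrix genes were DE by edgeR, beside 0.0455% of all genes, and 11 had an unadjusted p under 0.05, beside 13.9% of all genes. For the DAXX change against the mutant change 0 of the 39 were DE by edgeR, beside 0.0227%, and 8 had an unadjusted p under 0.05, beside 11.2%. The largest difference was that of Col5a3, whose log2 fold change with DAXX minus that with WT H3.3 was -4.66 (SE 0.93, adjusted p = 0.150). These differences were not run with another tool.

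The 3 H3.3 lines were then set against both Daxx lines. Strain, the origin of the line and the deleted gene go together here and cannot be told apart, the H3.3 lines all descend from one KO line and the Daxx lines from another, and the p-values measure the spread between libraries, not between independent lines. Of the 39 matrix genes 12 were DE, or 6 higher and 6 lower in the H3.3 lines, beside 12.5% of all genes, 6.29% higher and 6.20% lower. The 12 included 4 of the 10 tested laminin chains and 8 of the 20 tested collagens, and none of the nidogens, heparan sulfate proteoglycans, hyaluronan-binding proteoglycans or fibronectin. Of the 39, 6 had no overlap between the 4 Daxx and the 6 H3.3 libraries, against 22.8% of all genes tested.

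**Figure D3:**
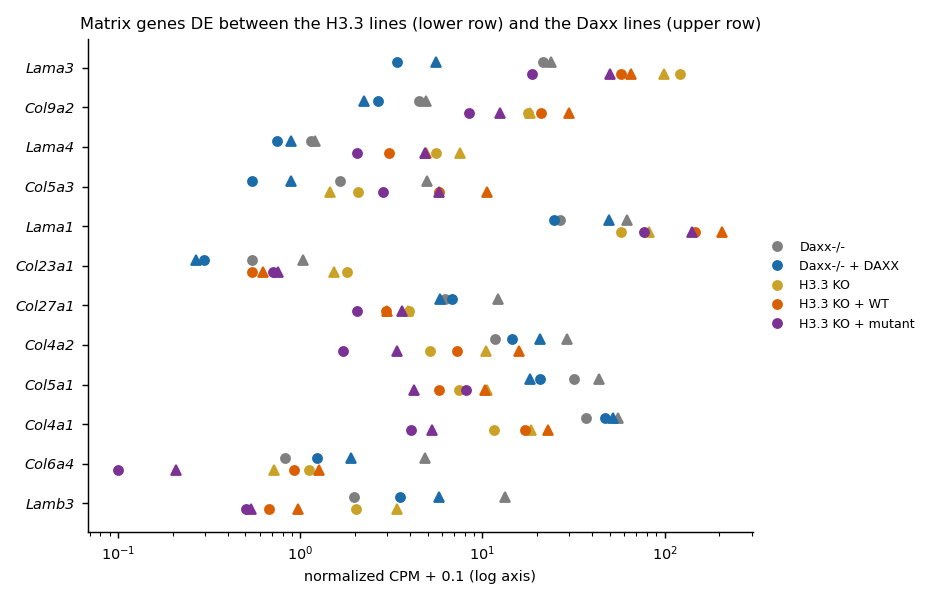
Normalized CPM plus 0.1 (horizontal log axis) of the 12 matrix genes that were DE between the H3.3 lines (lower row of points for each gene) and the Daxx lines (upper row), with a circle for replicate 1 and a triangle for replicate 2. For Col9a2, Lama4, Col27a1, Col5a1 and Col4a1 the rows do not overlap, while for Lama3, Lama1 and Col4a2 they overlap.

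Among the laminin alpha chains 3 were higher in the H3.3 lines. Lama3 had a median of 13.5 CPM (3.32 to 23.7) in the Daxx libraries and of 61.3 CPM (18.7 to 121) in the H3.3 libraries, a log2 difference of 2.63 (SE 0.28, adjusted p = 0.000236). Lama4, an alpha chain of vessel walls, had a median of 0.919 CPM (0.644 to 1.11) against 4.79 CPM (1.95 to 7.45), a log2 difference of 2.32 (SE 0.34, adjusted p = 0.00107). Lama1 had a median of 37.9 CPM (24.7 to 62.1) against 111 CPM (57.5 to 208), a log2 difference of 1.45 (SE 0.32, adjusted p = 0.00648). Of these 3 only Lama4 was separate in every library. Lama5 went the other way by less than 2-fold, at a median of 263 CPM in the Daxx lines and 162 CPM in the H3.3 lines (log2 difference -0.70, SE 0.19, adjusted p = 0.0159). Lamb3 was lower in the H3.3 lines, with a median of 4.54 CPM (1.88 to 13.1) against 0.721 CPM (0.404 to 3.29), a log2 difference of -2.64 (SE 0.51, adjusted p = 0.00363), so that the alpha and the beta chain of the epidermal laminin had opposite signs.

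Of the collagens 3 were higher and 5 lower in the H3.3 lines. Col9a2 had a median of 3.48 CPM (2.13 to 4.82) in the Daxx libraries and of 17.9 CPM (8.36 to 29.6) in the H3.3 libraries, a log2 difference of 2.34 (SE 0.19, adjusted p = 8.33e-05). Col4a1 had a median of 49.3 CPM (36.8 to 55.6) against 14.2 CPM (3.98 to 22.7), a log2 difference of -2.10 (SE 0.18, adjusted p = 9.87e-05), and Col4a2 of 17.4 CPM (11.6 to 29.0) against 6.11 CPM (1.62 to 15.7), a log2 difference of -1.65 (SE 0.36, adjusted p = 0.00674). Both chains of the collagen IV of most basement membranes were thus lower in the H3.3 lines. Col5a1, which limits the width of collagen fibrils, had a median of 26.1 CPM (18.2 to 43.3) against 7.69 CPM (4.10 to 10.5), a log2 difference of -1.84 (SE 0.24, adjusted p = 0.000552). Col27a1, a fibrillar collagen of growing cartilage, had a median of 6.42 CPM (5.72 to 12.0) against 3.20 CPM (1.95 to 3.85), a log2 difference of -1.27 (SE 0.26, adjusted p = 0.00464), which stayed past the p threshold but fell under 2-fold without replicate 2 of Daxx-/- (-0.98).

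The 3 other collagens that were DE between the lines are low-count genes. For Col6a4 the mutant-rescued libraries held 0 and 2 counts, within the 3 counts taken as the limit of detection. Its other H3.3 libraries lay between 0.621 and 1.16 CPM. The size of its difference thus rests partly on that limit, and it ran from -2.46 to -0.83 over the alternatives other than leaving out a library. Col6a4 had a median of 1.47 CPM in the Daxx libraries and of 0.723 CPM in the H3.3 libraries, a log2 difference of -2.40 (SE 0.61, adjusted p = 0.0135) that became -1.44 without replicate 2 of Daxx-/- (adjusted p = 0.0525). Col5a3 had a median of 1.17 CPM against 4.23 CPM, a log2 difference of 1.46 (SE 0.43, adjusted p = 0.0245), and its call was lost without replicate 1 of the DAXX-rescued line (0.0990), replicate 1 of H3.3 KO (0.0600), replicate 2 of the WT-rescued line (0.0654) or replicate 2 of the mutant-rescued line (0.0524). Col23a1, at most 1.70 CPM anywhere, had a log2 difference of 1.11 (SE 0.39, adjusted p = 0.0496) and stayed DE in 1 of the 8 fits that left out a library and still tested it. For the remaining 8 of the 12 the call held without each of the 10 libraries in turn. Nid2 was the sixth gene with no overlap, at a median of 554 CPM (528 to 598) in the Daxx libraries and 331 CPM (290 to 429) in the H3.3 libraries, a change of less than 2-fold (log2 difference -0.70, SE 0.08, adjusted p = 0.000357). Thy1, a marker of fibroblasts and mesenchyme, was also lower in the H3.3 lines, at 3.23 to 7.66 CPM against 11.6 to 36.0 CPM, while Twist1 (log2 difference 0.14, SE 0.36) and Pdgfrb (-0.10, SE 0.54) of the same list did not pass. Of the 9 tested endoderm markers 7 had a positive difference and 2 a negative one, and the 1 DE marker, Pdgfra, was lower (-1.49, SE 0.41), whereas Sparc was higher by less than 2-fold (0.46, SE 0.12, adjusted p = 0.0150). The part of either cell type in these differences was not tested. The pluripotency marker Klf4 was higher in the H3.3 lines (1.16, SE 0.09).

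Per length the laminin chains show which alpha chain led in each line. In Daxx-/- mESCs Lama5 made up 75.6% and 76.9% of the alpha chain CPM per kb in replicates 1 and 2, and in the DAXX-rescued line 87.9% and 80.6%. In H3.3 KO mESCs Lama5 held 36.1% and 41.2%, Lama3 39.7% and 28.6% and Lama1 20.9% and 26.1%. In the WT-rescued line Lama1 led with 48.0% and 49.9%, and in the mutant-rescued line Lama5 with 62.1% and 49.1%. The order of Lama5 and Lama3 in H3.3 KO mESCs differed between the replicates, at 10.4 and 13.6 CPM per kb for Lama5 and 11.5 and 9.41 CPM per kb for Lama3, so these 2 did not differ beyond their spread. Lama2, the alpha chain of muscle, stayed below 0.1 CPM per kb in every library. Lamb1 and Lamb2 were at like levels per kb in each Daxx line, and Lamc1 lay between 50.4 and 88.7 CPM per kb over the 10 libraries.

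**Figure D4:**
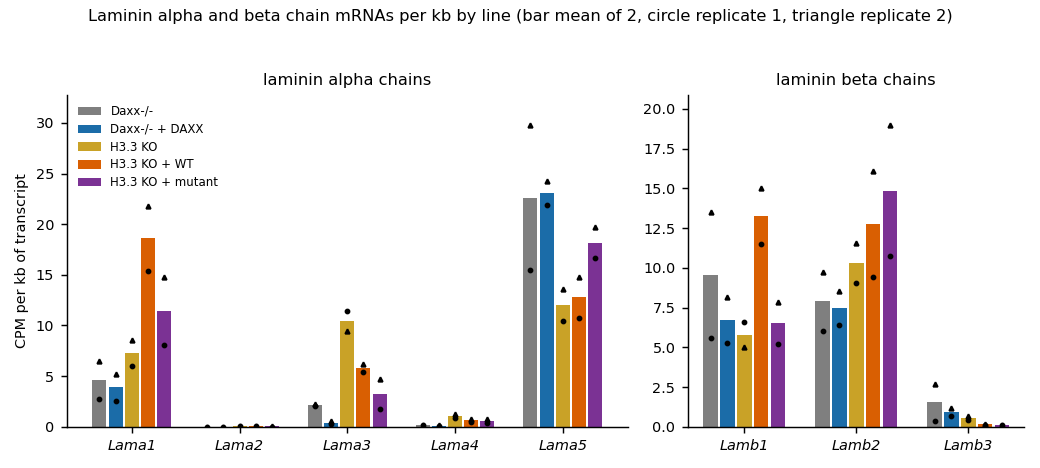
CPM per kb of transcript (vertical axis, from 0, with its own scale in each panel) of the laminin alpha and beta chains in the 5 lines, with bars for the mean of 2 libraries, circles for replicate 1 and triangles for replicate 2. Lama1 is highest in the WT-rescued line at 15.4 and 21.8 CPM per kb, Lama3 in H3.3 KO mESCs at 11.5 and 9.41 CPM per kb, and Lama5 has its highest means in the Daxx lines, where replicate 1 of Daxx-/- (15.5 CPM per kb) lies below both mutant-rescued libraries (16.7 and 19.7 CPM per kb).

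Replicate 2 tended to lie above replicate 1 for the matrix genes in 4 of the 5 lines. It was the higher one for 34 of the 39 tested genes in Daxx-/- mESCs, 26 in the DAXX-rescued line, 20 in H3.3 KO mESCs, 34 in the WT-rescued line and 34 in the mutant-rescued line, whereas over all genes tested the share lay between 49.0% and 50.8%. On the scale of log2(CPM + 1) the median difference of replicate 2 from replicate 1 over the 39 was 0.67, 0.20, 0.03, 0.48 and 0.52 in the same order. For 11 genes replicate 2 was the higher one in all 5 lines, among them Nid1, Hspg2, Lama1, Lama5, Col4a1 and Col4a2. The summed CPM of all matrix genes was accordingly 4871 and 5938 in Daxx-/- mESCs, 4431 and 5040 in the DAXX-rescued line, 3654 and 4173 in H3.3 KO mESCs, 4349 and 5426 in the WT-rescued line and 4278 and 5512 in the mutant-rescued line. In sum the lines overlapped in every comparison except those of H3.3 KO mESCs with the rescued H3.3 lines, where both rescued libraries lay above both KO libraries. Fn1, the largest part of this sum, was separate in the same way. It was at 1683 and 1654 CPM in H3.3 KO mESCs, 2179 and 2444 CPM in the WT-rescued and 1919 and 2609 CPM in the mutant-rescued line. Its log2 fold changes were 0.47 with WT H3.3 and 0.44 with the mutant, neither DE. The sum without Fn1 was not compared. The labels do not say what the replicates of one number had in common, and the genes were not chosen for this difference.

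**Figure D5:**
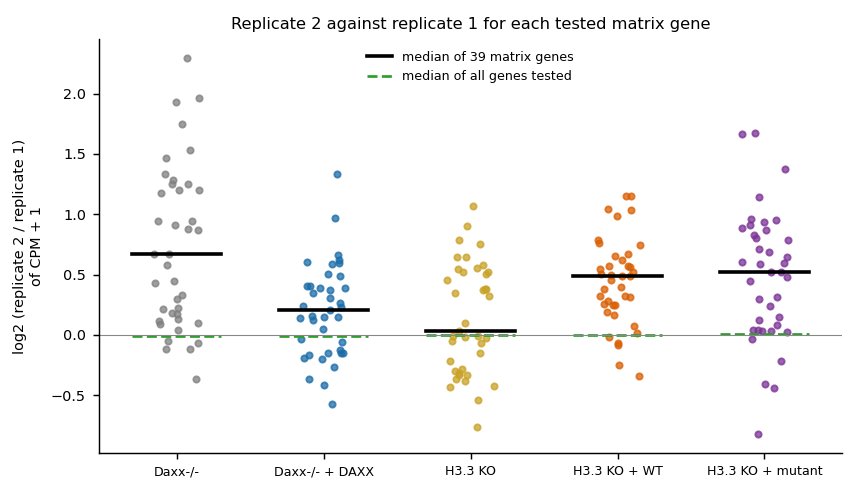
Log2 ratio of replicate 2 to replicate 1, each as CPM + 1 (vertical axis), for the 39 tested matrix genes in the 5 lines, where each dot is 1 gene, the black bar is their median and the dashed green bar is the median over all genes tested. The black bar lies at 0.67 in Daxx-/- mESCs and at 0.03 in H3.3 KO mESCs, and the green bars lie between -0.01 and 0.01.

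The genes that act on this matrix were counted from 3 lists. Of 19 tested receptors (integrins, dystroglycan, syndecans and the discoidin receptors) 6 had an unadjusted p under 0.05 with DAXX, all lower, beside 21.8% of all genes, and 2 an adjusted p under 0.05, of which Itgb1, a chain of most laminin and collagen receptors, changed by less than 2-fold (log2 fold change -0.74, SE 0.13, adjusted p = 0.0360). The 1 that was DE was Itgb5, a chain of a vitronectin-binding integrin, at 95.7 and 75.7 CPM in Daxx-/- mESCs and 24.0 and 29.3 CPM in the rescued line (log2 fold change -1.69, SE 0.20, adjusted p = 0.0191). In the H3.3 comparisons with a transgene 0 of the 19 were DE by edgeR, with 1, 2 and 3 unadjusted p-values under 0.05 for WT H3.3, the mutant and the mutant against WT H3.3, beside 13.3%, 16.9% and 12.3% of all genes. Between the H3.3 and the Daxx lines 3 were DE, where 12.5% of all genes were: Sdc2 was higher in the H3.3 lines (log2 difference 2.06, SE 0.16) and Sdc4 (-1.69, SE 0.35) and Ddr2, a receptor of fibrillar collagens (-1.74, SE 0.36), were lower. Of 22 tested enzymes that modify or crosslink collagen 0 were DE by edgeR in any comparison with a transgene, and 4, 4, 5 and 2 had an unadjusted p under 0.05 in the order DAXX, WT H3.3, mutant, and mutant against WT H3.3. Between the lines 2 were DE, beside 12.5% of all genes, both higher in the H3.3 lines. Glt25d2, a collagen galactosyltransferase (5.11, SE 0.49), was at 0.499 and 0.333 CPM in Daxx-/- mESCs and at 1.86 to 9.25 CPM in the H3.3 lines. In the DAXX-rescued line it was at 0.05 and 0 CPM, within the 3 counts taken as the limit of detection. The size of its difference thus rests partly on that limit. Loxl4, of the lysyl oxidase family (2.74, SE 0.62), was at 0 to 0.561 CPM in the Daxx lines. Of 11 tested matrix proteases and their inhibitors 0 were DE by edgeR with a transgene, and 5, 5, 3 and 2 had an unadjusted p under 0.05 with DAXX, WT H3.3, the mutant and the mutant against WT H3.3, beside 21.8%, 13.3%, 16.9% and 12.3% of all genes. Between the lines 2 were DE, beside 12.5%, Mmp14, a membrane-bound collagenase, higher in the H3.3 lines (1.49, SE 0.21) and Mmp2, a gelatinase, lower (-1.56, SE 0.43). The partner lists were not run with another tool.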

How the data were processed

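RNA-seq of polyA RNA, prepared with a kit that keeps no strand, covered 10 libraries, 2 biological replicates of each of 5 mESC lines. The authors deposited 1 table of expected counts for 20325 genes, estimated with Bowtie and RSEM on mm9 per the submitters' processing notes (versions not given in the sources used here). Although the table is named for TPM, its columns sum to different totals and hold counts. Counting error is small beside the spread of replicates except for the low-count genes named as such.

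Expected counts were rounded, scaled by median-of-ratios factors (0.936 to 1.04) and tested with edgeR 4.0.16 (R 4.3.3) by the quasi-likelihood method in 1 fit over all 10 libraries, on the 13201 genes that reached 1 CPM in 2 or more libraries. Genes with a Benjamini-Hochberg adjusted p under 0.05 and at least a 2-fold change were called DE. Standard errors are the fold change over the root of its F statistic. The script was tested on simulated data. Levels per kb used exon lengths from GENCODE M21 (GRCm38, not the build of the table). The differences between the DAXX and the H3.3 changes were added after seeing the data. Alternatives were TMM factors, total counts, DESeq2 1.42.0, limma 3.58.1 on log2(CPM + 1) or log2(CPM + 0.1), other filters, a replicate block, fits of only the libraries compared, no fold threshold, and leaving out each library. Figures were drawn with matplotlib 3.10.9 in Python 3.11.15.

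The matrix genes and all lists were chosen with earlier results of these data known. Genes were named where DE, where among the 5 largest changes of a comparison with an unadjusted p under 0.05 and no overlap of libraries, where a core basement membrane gene, fibronectin or a hyaluronan-binding proteoglycan, or where the most abundant of a class. Lama2, Col1a2, Col3a1, Col8a1, Sparc, Gata6, Sox17, Twist1, Pdgfrb and Itgb1 were named after their values were seen. The values of 1 tested gene are not reported here.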

Additional observations from a re-analysis of the deposited data

Results flagged for a closer look

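Col4a1 differed between the rescued H3.3 lines. Its log2 fold change against H3.3 KO was 0.41 (SE 0.29) with WT H3.3, with overlapping libraries, and -1.70 (SE 0.31) with the mutant, and the test of the difference between the rescued lines gave -2.11 (SE 0.31, edgeR adjusted p = 0.0333), a call lost without any one of the 4 libraries (adjusted p between 0.0553 and 0.259). Both changes are measured from the same H3.3 KO libraries.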

How the results depend on the processing

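Fold changes were rerun only for genes named as DE or among the 5 largest changes, each in the comparison concerned. None of these turned its direction under any alternative run: of these values 427 kept their side of the threshold, 48 lost the call and 25 gained it. The fold changes of genes named for other reasons were not rerun one by one. The count of DE matrix genes between the H3.3 and the Daxx lines (12) stayed within 1.5 times under every alternative. With DAXX (1 gene) the count was 0 with the total count alone and with only the libraries compared, 2 with limma on log2(CPM + 1), limma on log2(CPM + 0.1) or no filter, 4 with DESeq2, and 0 to 4 without 1 library. With WT H3.3 (1 gene) it was 2 with DESeq2, 4 with only the libraries compared and 0 without any 1 library. With the mutant against H3.3 KO (3 genes) it was 1 with only the libraries compared and 0 to 2 without 1 library, while the comparison of the mutant with WT H3.3 (1 gene) gave 0 with the total count alone, with only the libraries compared and without any 1 library, and 3 with DESeq2. The causes were not tested, beyond that fits of fewer libraries have fewer degrees of freedom. The shares of all genes DE given above are from the main fit. The counts of the alternatives, with those of the replicate block below, stand without such shares and do not show a gain particular to the matrix genes. With the replicate number as a block the counts became 4 (Lama3, Col1a1, Col2a1 and Col5a3) with DAXX, 2 (Vcan and Lama1) with WT H3.3, 5 (Vcan, Col18a1, Col4a1, Col4a2 and Lama3) with the mutant, 3 (Col4a1, Col4a2 and Col9a2) for the mutant against WT H3.3 and 12 between the lines. Nothing in the labels says that a number marks a shared day or batch, and the main fit did not treat the replicates as paired. The replicate differences of 2 lines correlated between -0.04 and 0.57 over genes, above 0.1 in 7 of 10 pairs of lines. Between lines other than H3.3 KO the correlations lay between 0.27 and 0.57. Replicates of one number thus shared part of their difference in those lines. The main fit leaves that part in its error, and the calls depend on this choice. Depth limited the 22 genes that were not tested and the low-count collagens.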
